A study of Mus musculus with 4 samples.

Results

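The genes studied were 7 genes of the lipid droplet surface and of droplet formation. They are the perilipins Plin1, Plin2, Plin3 and Plin4, the droplet fusion gene Cidec, the seipin gene Bscl2 and the fat storage gene Fitm2. They were chosen by name, through the RefSeq identifiers of the rows, out of 13108 measured genes, and each had 1 row in every sample. RNA-seq had been performed on 4 stable lines of 3T3-L1, a mouse preadipocyte line that fills with lipid when given adipogenic hormones. FLAG cells carried the empty FLAG vector and FLAG-CACUL1 cells overexpressed FLAG-tagged CACUL1, a cullin-domain protein that the study describes as a repressor of the adipogenic receptor PPARγ. The sh-Luc cells expressed a hairpin against luciferase and sh-CACUL1 cells a hairpin against CACUL1. All 4 lines were brought to confluency, induced with insulin (5 μg/mL), the glucocorticoid dexamethasone (1 μg/mL), the phosphodiesterase inhibitor IBMX (0.5 mM) and the synthetic PPARγ ligand rosiglitazone (5 μM), and harvested on differentiation day 8. The FLAG vectors were selected with G418 and the sh vectors with Hygromycin B, so the controls differ in vector and drug. Each line had 1 library, hence no difference between lines has a replicate check and no test was made.

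A lipid droplet is a core of neutral lipid under a single phospholipid layer, and proteins that sit on that layer decide how the core is stored and released. It buds from the endoplasmic reticulum, where seipin forms rings at the contact between the membrane and the young droplet and FITM2 is needed for the lipid to emerge towards the cytosol. Perilipins coat the surface. PLIN3 and PLIN4 are cytosolic proteins that coat young and small droplets, PLIN2 coats droplets in most cell types, and PLIN1 is the coat of mature adipocytes, where it restrains basal lipolysis and allows it when phosphorylated. CIDEC, also called FSP27, gathers where droplets touch and moves lipid from the smaller to the larger one, which gives white adipocytes their single large droplet. Plin1, Plin4 and Cidec are known PPARγ targets in adipocytes, and loss of PLIN1, CIDEC or seipin function causes lipodystrophy in humans.

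The genes lie apart on the mouse genome, and only Plin3 and Plin4 share a chromosome. By GENCODE M21 on GRCm38, and with the first RefSeq transcript of each row in brackets, Plin1 (NM_001113471) spans chr7:79720218-79732903, Plin2 (NM_007408) chr4:86648386-86670060, Plin3 (NM_025836) chr17:56277476-56292873, Plin4 (NM_020568) chr17:56100591-56109803, Cidec (NM_001301295) chr6:113424634-113435760 and Fitm2 (NM_173397) chr2:163466379-163472629, all on the minus strand. Bscl2 (NM_008144) spans chr19:8837467-8848683 on the plus strand. Overlapping genes concern 3 of them. Bscl2 shares 1728 bases with Gng3 on the other strand and 3671 bases with the read-through gene AC129217.1 on its own strand, Fitm2 shares 673 bases with the antisense gene 2310001K24Rik, and Plin4 shares 17 bases with the end of Hdgfl2. Whether the libraries kept the strand is not given in the sources used here, so reads in stretches shared with the other strand cannot be assigned to one gene. Bscl2 and AC129217.1 lie on the same strand, so their shared reads could not be separated by strand in any case. The level of AC129217.1 is not given here. Gng3 had at most 0.541 FPKM in any sample.

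Plin1, Cidec and Plin2 carry most of what follows. The former pair had the widest ranges over the lines. Plin2 had the highest perilipin level in every line, though nearly level with Plin1 in sh-CACUL1. The 250 bases before the transcription start of each are printed from RefSeq's annotation of GRCm38.p6, all on the minus strand. In the upstream sequences of Plin1 (chr7:79732777-79733026) and Cidec (chr6:113435761-113436010, the first of 2 listed starts) capitals mark CG dinucleotides, and in that of Plin2 (chr4:86670060-86670309) they mark a match to the direct repeat that PPAR and RXR dimers bind.
Plin1: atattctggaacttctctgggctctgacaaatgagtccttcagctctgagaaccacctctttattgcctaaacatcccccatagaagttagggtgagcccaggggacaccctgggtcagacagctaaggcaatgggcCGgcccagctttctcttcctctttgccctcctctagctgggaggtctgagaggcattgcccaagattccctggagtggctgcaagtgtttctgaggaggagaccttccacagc
Cidec: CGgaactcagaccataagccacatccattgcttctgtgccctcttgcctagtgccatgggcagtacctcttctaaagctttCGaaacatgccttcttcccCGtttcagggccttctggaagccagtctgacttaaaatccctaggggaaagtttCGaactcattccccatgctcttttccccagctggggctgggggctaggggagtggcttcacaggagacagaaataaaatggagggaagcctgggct
Plin2: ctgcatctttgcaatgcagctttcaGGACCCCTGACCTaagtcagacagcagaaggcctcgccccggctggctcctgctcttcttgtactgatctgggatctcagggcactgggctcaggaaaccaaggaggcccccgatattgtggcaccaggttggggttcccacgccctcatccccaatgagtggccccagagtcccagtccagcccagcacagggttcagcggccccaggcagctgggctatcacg
The repeat searched for was AGGTCA, any 1 base, and AGGTCA again, on both strands and with at most 2 mismatches, in windows of 300 bases that also take in 50 bases after the start. It was found in 1 of the 10 windows of the 7 genes, that of Plin2, on the antisense strand from 225 to 213 bases before the start with 2 mismatches. Of all 32851 RefSeq windows, 3.86% hold such a match. The C/EBP palindrome TTGCGCAA was in none of the 10 windows and in 0.183% of all windows. A match of letters is no evidence of binding, and the lack of one says nothing about elements outside the window. The CG content of the windows was counted after the expression values were known. The Plin1 window has 2 CG dinucleotides and 14.1% of all windows have fewer, against 6 and 7 in the Cidec windows, 7 in that of Plin4, 9 in that of Plin3, 10 in that of Plin2, 16 in that of Fitm2 and 16, 3 and 5 in the windows of Bscl2. The median window has 7.

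The deposited values are FPKM, the number of fragments divided by transcript length and by library size, and so can be compared between genes. FPKM summed to between 372148 and 473584 per sample, and evenly spaced steps among the low values gave depths of about 14300000 to 24000000 fragments. The intervals given here are 95% intervals from fragments estimated in that way. They cover counting error only and not the difference between separate cultures. A fold change in log2 is that of FPKM + 1, and a gene was called changed at 2-fold or more on that scale, the cut-off of the study. Cacul1, the targeted gene, stood at 10.2 FPKM with the luciferase hairpin and at 5.39 with its own, a log2 change of -0.82 that stayed under 2-fold. It had 9.61 FPKM in FLAG and 11.8 in FLAG-CACUL1, a log2 change of 0.27. The species of the CACUL1 insert is not given, so this row may not count all of its transcripts. The controls themselves lay far apart. All 8 measured adipocyte markers, of 9 listed, were at least 2-fold higher in FLAG than in sh-Luc, and their summed level was 8198 FPKM in FLAG, 16201 in sh-CACUL1, 1583 in sh-Luc and 874.2 in FLAG-CACUL1. The 7 measured of 8 preadipocyte and fibroblast markers summed to 4854, 632.3, 3148 and 6993 FPKM in the same order, a sum carried by the collagen genes Col1a1 and Col3a1. They did not move as one, with 4 higher by 2-fold or more and 1 lower (Dlk1) in FLAG-CACUL1 against FLAG, and 4 lower and 2 higher (Dlk1 and Thy1) in sh-CACUL1 against sh-Luc. Dlk1, a preadipocyte marker, had 97.2 FPKM in FLAG, 21.2 in sh-CACUL1, 0.22 in sh-Luc and 39.4 in FLAG-CACUL1, and Thy1 had 42.4, 34.3, 0.663 and 144.2. Macrophage, endothelial and skeletal muscle markers together had 4 measured genes of 10 listed, and of these Cd68 was above 2 FPKM, with 16.2 in FLAG.

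Plin1, the coat of the mature adipocyte droplet, was high in FLAG and sh-CACUL1 and low in the remaining lines. It stood at 158.2 FPKM in FLAG, 113.4 in sh-CACUL1, 24.3 in sh-Luc and 7.91 in FLAG-CACUL1. In FLAG it exceeded 96.9% of all genes and in FLAG-CACUL1 52.0%. Overexpression of CACUL1 went with a level 20.0-fold lower than in FLAG (17.5 to 23.1), a log2 change of -4.16, and knockdown with one 4.66-fold higher than in sh-Luc (4.36 to 4.99), a log2 change of 2.18. FLAG itself was 6.50-fold above sh-Luc (6.09 to 6.95), more than the knockdown line was. The direction in sh-CACUL1 therefore depended on the control, since its Plin1 level lay below that of FLAG, with a log2 difference of -0.48. In these bulk samples, fewer cells with mature droplets and less Plin1 RNA per cell cannot be told apart, which holds for all 7 genes.

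Plin2, the coat found on droplets of most cell types, was the highest perilipin in all 4 lines and stayed under 2-fold in both comparisons with the own-vector control. In sh-CACUL1 its counting interval (111.6 to 119.5) overlapped that of Plin1 (109.6 to 117.4), so the rank is not firm there. It had 322.9 FPKM in FLAG, 197.8 in FLAG-CACUL1, 115.5 in sh-CACUL1 and 91.0 in sh-Luc. The lines fell by vector, both FLAG vectors above both sh vectors, which was not the order of any of the other 6 genes. FLAG-CACUL1 was 1.63-fold below FLAG (1.58 to 1.69) and sh-CACUL1 1.27-fold above sh-Luc (1.21 to 1.33). The controls differed more than that, with FLAG 3.55-fold above sh-Luc (3.42 to 3.68). Read against the opposite control, Plin2 had log2 changes of 1.11 for FLAG-CACUL1 and -1.47 for sh-CACUL1, both with the sign turned.

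Plin3, a cytosolic perilipin that binds young droplets, changed opposite to Plin1 in both comparisons with the own-vector control. Its order over the lines was the reverse of that of Cidec, Bscl2 and Fitm2. Its level was 71.6 FPKM in FLAG-CACUL1, 67.5 in sh-Luc, 49.3 in FLAG and 28.7 in sh-CACUL1. It was the only one of the 7 genes that was highest in FLAG-CACUL1 and lowest in sh-CACUL1. The difference was 1.45-fold upward in FLAG-CACUL1 (1.38 to 1.53) and 2.35-fold downward in sh-CACUL1 (2.22 to 2.49), the latter a log2 change of -1.21. That call was lost with quantile normalization (-0.90), with median-of-ratios scaling (-0.74) and against the opposite control (-0.76). As deposited, all genes had a median log2 change of -0.30 in this comparison. FLAG-CACUL1 and sh-Luc were close, with a ratio of 1.06 (1.02 to 1.11).

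Plin4, which coats small droplets in adipocytes and is the longest of the 7 transcripts at 5756 bases, followed the order of Plin1 over a narrower range. FLAG had 107.7 FPKM, sh-CACUL1 79.2, sh-Luc 54.9 and FLAG-CACUL1 47.4. The highest level was 2.27 times the lowest, against 20.0 times for Plin1. FLAG-CACUL1 was 2.27-fold below FLAG (2.19 to 2.36), a log2 change of -1.17, while sh-CACUL1 was 1.44-fold above sh-Luc (1.40 to 1.49) and under the cut-off. The controls were 1.96-fold apart (1.90 to 2.02), with FLAG higher. Against the opposite control the call was lost, at a log2 change of -0.21, and the sh-CACUL1 change turned sign to -0.44. Its neighbour Hdgfl2 had 20.9, 33.3, 36.2 and 30.4 FPKM in FLAG, sh-CACUL1, sh-Luc and FLAG-CACUL1.

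Cidec, the droplet fusion gene, had the widest range of the 7. It reached 1324 FPKM in sh-CACUL1, above 99.8% of all genes, against 123.2 in FLAG, 81.5 in sh-Luc and 1.36 in FLAG-CACUL1. The highest level was 973 times the lowest. In FLAG-CACUL1 an estimated 33 fragments lay behind the value, which gives an interval of 0.925 to 1.89 FPKM, against an estimated 34159 fragments in sh-CACUL1. Against its own vector control, Cidec was 90.5-fold lower with CACUL1 overexpressed (65.1 to 133), a log2 change of -5.72, and 16.3-fold higher with CACUL1 depleted (15.7 to 16.8), a log2 change of 4.01. The controls were nearer each other here than for Plin1, with FLAG 1.51-fold above sh-Luc (1.44 to 1.59). Set against the opposite control, the log2 changes were -5.13 and 3.42, so Cidec alone of the 7 genes was called with both controls in both comparisons.

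**Figure D1:**
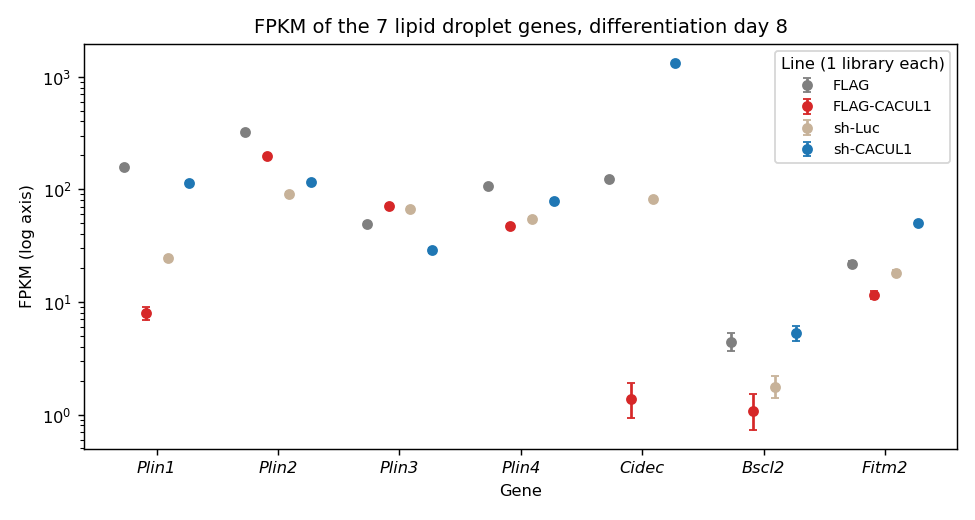
FPKM (log axis) of the 7 genes in the 4 lines, 1 library each; bars are 95% counting intervals from estimated fragments. Cidec ran from 1.36 in FLAG-CACUL1 to 1324 in sh-CACUL1, while Plin3 stayed between 28.7 and 71.6 with its highest point in FLAG-CACUL1.

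Bscl2, which encodes seipin, was the least abundant of the 7 genes, and its order was that of Cidec. It had 5.28 FPKM in sh-CACUL1, 4.43 in FLAG, 1.76 in sh-Luc and 1.08 in FLAG-CACUL1, with an estimated 155, 126, 83 and 30 fragments. FLAG-CACUL1 was 4.12-fold below FLAG (2.77 to 6.40) and sh-CACUL1 3.01-fold above sh-Luc (2.28 to 3.95). On the log2 scale of FPKM + 1, which shrinks such low values, these were changes of -1.39 and 1.19. FLAG was 2.52-fold above sh-Luc (1.90 to 3.37), which at 0.98 on that scale fell short of the cut-off. Against the opposite control both calls were lost, at -0.41 and 0.21. The levels of sh-CACUL1 and FLAG did not differ beyond counting error, with a ratio of 1.19 (0.931 to 1.51).

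Fitm2, which is needed for droplets to bud, also kept the order of Cidec. Its levels were 50.2 FPKM in sh-CACUL1, 21.8 in FLAG, 18.2 in sh-Luc and 11.5 in FLAG-CACUL1. The line with CACUL1 knocked down stood apart, 2.76-fold above sh-Luc (2.60 to 2.93) with a log2 change of 1.42. FLAG-CACUL1 was 1.89-fold below FLAG (1.72 to 2.08), which on the log2 scale was -0.86 and under the cut-off. The controls were closest for this gene, with FLAG 1.20-fold above sh-Luc (1.11 to 1.29).

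**Figure D2:**
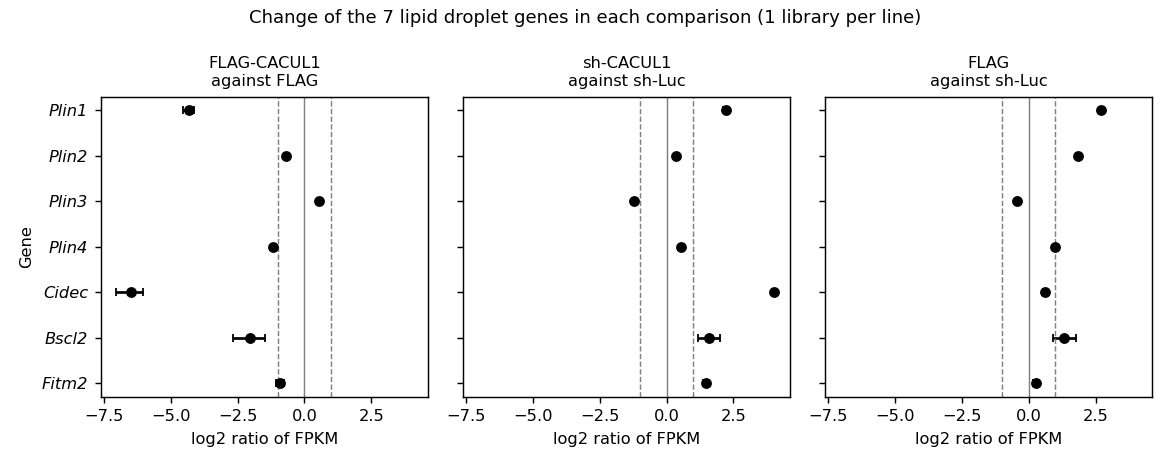
log2 ratio of FPKM for each gene in FLAG-CACUL1 against FLAG, sh-CACUL1 against sh-Luc and FLAG against sh-Luc, with 95% counting intervals as bars and dashed lines at 2-fold. Plin3 lies on the opposite side from the other 6 genes in all 3 panels, and the control comparison moved Plin1 by 6.50-fold.

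Against FLAG, the FLAG-CACUL1 line had 4 of the 7 genes lower by 2-fold or more (Plin1, Plin4, Cidec and Bscl2) and none higher, where 14.7% of all 13108 genes were called, 7.22% of them as lower and 7.51% as higher. Against sh-Luc, the sh-CACUL1 line had 4 genes higher by 2-fold or more (Plin1, Cidec, Bscl2 and Fitm2), beside 4.96% of all genes, and 1 lower (Plin3), beside 16.4%, which makes 5 of 7 called beside 21.3%. After quantile normalization Plin3 was not called in this comparison, which left 4 of 7 beside 17.3% of all genes. Plin1, Cidec and Bscl2 passed the cut-off in both comparisons, lower with overexpression and higher with knockdown, as 1.69% of all genes did. All 7 genes had opposite signs in these comparisons, which share no sample, as had 59.5% of all genes. Without a cut-off, 6 of the 7, all but Plin3, were lower with overexpression and higher with knockdown, beside 16.1% of all genes. The 7 genes had a median log2 change of -1.17 with overexpression and 1.19 with knockdown, where that of all genes was 0.09 and -0.30. The controls alone gave 2 genes that were higher in FLAG than in sh-Luc by 2-fold or more (Plin1 and Plin2), beside 8.59% of all genes, and none lower, beside 12.4%, or 21.0% in either direction. Their median was 0.96. Read against the opposite control, 1 gene (Cidec) in place of 3 was 2-fold lower with overexpression and 2-fold higher with knockdown. Opposite signs were then held by 5 genes in place of 7. Of these 5, Cidec, Bscl2 and Fitm2 were lower with overexpression and higher with knockdown. Plin2 (1.11 and -1.47) and Plin3 (0.08 and -0.76) went the other way. The shares of all genes with these patterns were not counted for that control. The median of the 7 genes was then -0.41 with overexpression and, with its sign turned, -0.44 with knockdown. The adipocyte markers moved the same way, with 8 of 8 lower under overexpression and 8 of 8 higher under knockdown, and the part of the extent of differentiation in the values of the 7 genes was not tested. Pparg, the receptor that the study is about, had 70.1 FPKM in FLAG, 61.8 in sh-CACUL1, 14.8 in sh-Luc and 12.3 in FLAG-CACUL1, which is the order of Plin1 and Plin4.

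**Figure D3:**
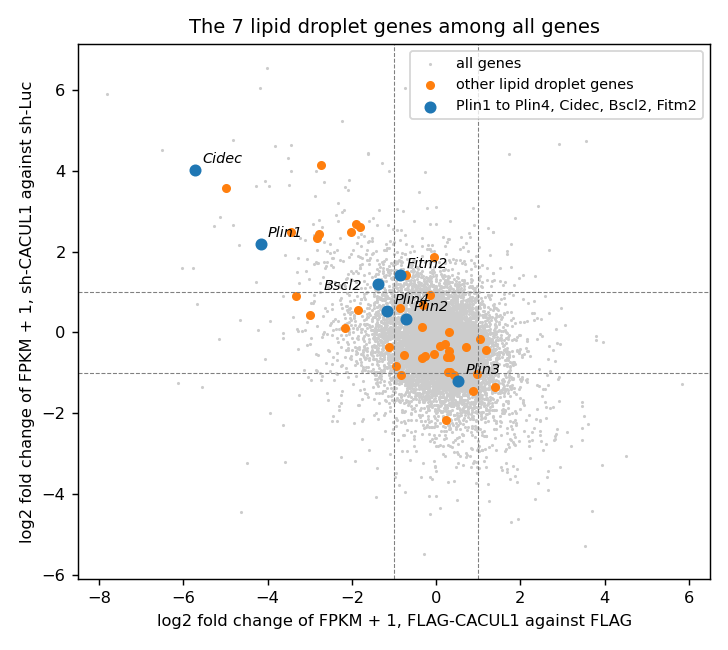
Each point is a gene, with its log2 fold change of FPKM + 1 in FLAG-CACUL1 against FLAG (x) and in sh-CACUL1 against sh-Luc (y); dashed lines mark 2-fold. Plin1, Cidec and Bscl2 fall in the upper left field, which holds 1.69% of all genes, and Plin3 falls on the opposite side.

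The makeup of the perilipin pool differed between the lines. The 4 perilipins summed to 638.1 FPKM in FLAG, 336.9 in sh-CACUL1, 237.7 in sh-Luc and 324.7 in FLAG-CACUL1. Plin1 made up 24.8% of that sum in FLAG, 33.7% in sh-CACUL1, 10.2% in sh-Luc and 2.44% in FLAG-CACUL1. FLAG-CACUL1 and sh-CACUL1 had similar sums, but the pool was 60.9% Plin2 in the former and 34.3% in the latter. The share of Plin3 was 7.73% in FLAG and 8.52% in sh-CACUL1 against 22.0% in FLAG-CACUL1 and 28.4% in sh-Luc. Plin4 held between 14.6% and 23.5% in the 4 lines. These shares come from within a library and do not depend on how the libraries were scaled.

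**Figure D4:**
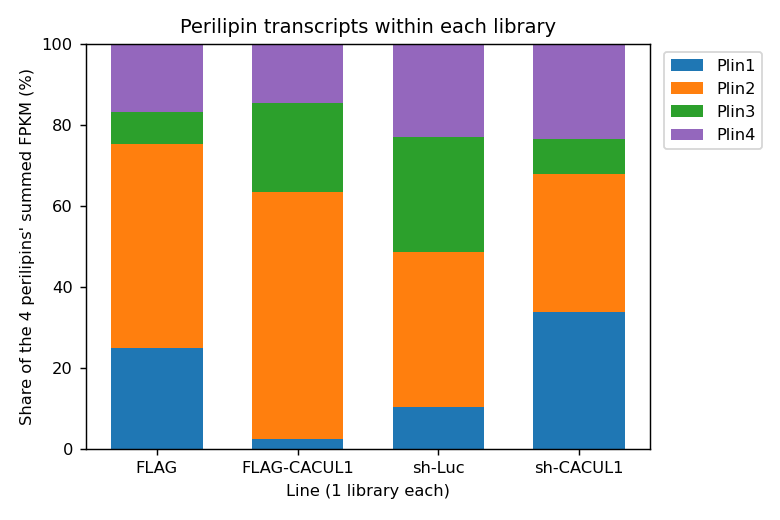
Share of the summed FPKM of the 4 perilipins (%, stacked to 100) in each line, 1 library each. The Plin1 band takes up 33.7% in sh-CACUL1 against 2.44% in FLAG-CACUL1, and the Plin2 band is widest in FLAG-CACUL1 at 60.9%.

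Ratios within a library, chosen after the levels were known, showed which genes kept pace. Plin2 was 2.04 times Plin1 in FLAG, 1.02 times in sh-CACUL1, 3.74 times in sh-Luc and 25.0 times in FLAG-CACUL1. Cidec was 0.779 times Plin1 in FLAG, 11.7 times in sh-CACUL1, 3.35 times in sh-Luc and 0.172 times in FLAG-CACUL1. Both controls thus differed in this ratio too, with Cidec below Plin1 in FLAG and above it in sh-Luc. Adipoq, the adiponectin gene and an adipocyte marker, was 5.29, 11.0, 7.04 and 2.90 times Plin1 in FLAG, sh-CACUL1, sh-Luc and FLAG-CACUL1. The ratio of Plin1 to Adipoq varied 3.80-fold over the lines, that of Cidec to Adipoq 17.8-fold and that of Plin2 to Adipoq 93.3-fold. Most of the last range came from Adipoq, which ran from 23.0 FPKM in FLAG-CACUL1 to 1252 in sh-CACUL1, while Plin2 itself varied 3.55-fold. Fitm2 and Bscl2, the genes of droplet formation, had a ratio of 4.91 in FLAG and 9.52, 10.4 and 10.7 in sh-CACUL1, sh-Luc and FLAG-CACUL1.

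A list of 46 other lipid droplet genes, of which 41 were measured, was read by role. With overexpression 13 of them were lower by 2-fold or more and 3 higher, and with knockdown 10 were higher and 6 lower. Over all genes, 7.22% were lower and 7.51% higher with overexpression, and 4.96% higher and 16.4% lower with knockdown, so the 3 higher and the 6 lower genes lay near the share of all genes. The list medians were -0.32 and -0.28 on the log2 scale, beside 0.09 and -0.30 for all genes, so that in the knockdown comparison the list lay where the median gene did. The controls alone differed in as many list genes as the overexpression or the knockdown comparison did or more. In FLAG against sh-Luc, 13 of the 41 were higher by 2-fold or more and 6 lower, beside 8.59% and 12.4% of all genes. Genes of lipolysis at the droplet surface had 4 of 7 lower and 1 higher in FLAG-CACUL1, a median of -1.81, and 3 of 7 higher and none lower in sh-CACUL1, a median of 0.93. The list genes whose levels follow were mainly picked for passing 2-fold in both comparisons, so their large changes in both stem from that choice. Among the lipolysis genes, Pnpla2, the first lipase of triglyceride breakdown, had 48.4 FPKM in FLAG, 351.8 in sh-CACUL1, 56.5 in sh-Luc and 13.1 in FLAG-CACUL1. Lipe, the hormone-sensitive lipase, had 103.3, 191.6, 33.6 and 8.60 FPKM in that order, and G0s2, an inhibitor of the lipase that Pnpla2 encodes, had 132.8, 60.4, 4.14 and 3.24. G0s2 was thus low in both FLAG-CACUL1 and sh-Luc, as was Plin1, while Pnpla2 was lowest in FLAG-CACUL1 and otherwise closest in FLAG and sh-Luc, as was Cidec.

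Of 13 measured droplet-bound enzymes, 6 were lower and 2 higher in FLAG-CACUL1, beside 7.22% and 7.51% of all genes. In sh-CACUL1 5 were higher and 3 lower, beside 4.96% and 16.4%. The medians were -0.76 and 0.12, so the role as a whole hardly rose with knockdown. Between the controls, 6 were higher in FLAG than in sh-Luc and 3 lower. Acsl1, a fatty acid activating enzyme, had 77.6 FPKM in FLAG, 278.0 in sh-CACUL1, 15.0 in sh-Luc and 10.9 in FLAG-CACUL1. Dgat2 had 260.5, 6.24, 2.86 and 25.1 FPKM in that order, and with knockdown stayed under 2-fold on the scale of FPKM + 1. Dgat1, which makes triglyceride, had 93.3, 201.7, 35.0 and 22.1 FPKM in that order, and Mettl7b, a droplet-associated methyltransferase-like gene, had 5.63, 6.37, 0.151 and 0.767. Its relative Mettl7a1 went the opposite way at 4.52, 7.68, 21.1 and 13.7 FPKM, and was the only gene of the list past 2-fold in both comparisons with higher values in FLAG-CACUL1. In the 6 measured genes of droplet formation, Lpin1, the phosphatidate phosphatase, had 30.1, 33.1, 5.72 and 3.40 FPKM, and Agpat2, a lipodystrophy gene that makes phosphatidate, had 140.3, 271.3, 49.5 and 19.6. On the scale of FPKM + 1 the remaining 4 formation genes stayed under 2-fold with overexpression, Tmem159 just so at -0.95, and Lclat1 was lower by 2-fold or more with knockdown at -1.06. The 14 genes of droplet traffic and turnover had 1 gene lower in FLAG-CACUL1 and 2 lower in sh-CACUL1, shares near those of all genes, with medians of 0.24 and -0.55. Of the other coat and CIDE genes Cideb had at most 1.33 FPKM, and no row was found for Plin5 or Cidea.

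**Figure D5:**
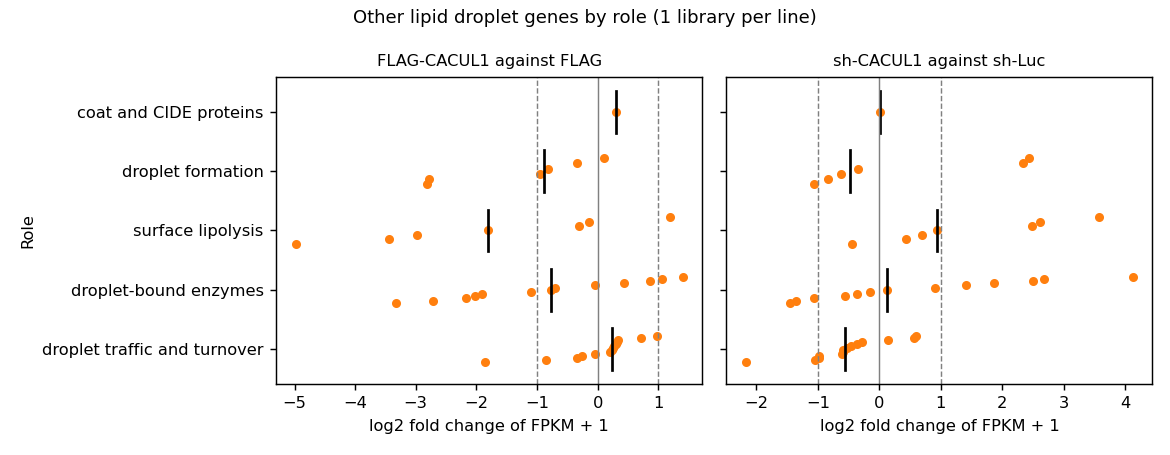
log2 fold change of FPKM + 1 of the 41 other measured lipid droplet genes by role, in FLAG-CACUL1 against FLAG and in sh-CACUL1 against sh-Luc; points are genes, black bars medians and dashed lines 2-fold. Lipolysis genes have medians of -1.81 and 0.93, and traffic genes 0.24 and -0.55.

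The genes with profiles most like those of Plin1, Cidec and Fitm2, the genes among the 7 whose log2(FPKM + 1) spanned at least 2 over the 4 samples, were sought by the Euclidean distance between mean-centred profiles among 11416 other genes. Nearest to Plin1 were Cldn15 at 0.67, A530016L24Rik at 0.78 and Slc1a3 at 0.81, where the median gene lay at 3.64. Cldn15, a claudin gene, had 165.9 FPKM in FLAG, 135.1 in sh-CACUL1, 36.7 in sh-Luc and 16.2 in FLAG-CACUL1. Nearest to Cidec were Gpd1 at 2.08, Thrsp at 2.14 and Adipoq at 2.72, against a median of 6.74. Gpd1, which makes glycerol phosphate for triglyceride, had 46.9, 213.2, 16.3 and 1.49 FPKM in the same order, and Thrsp, a regulator of lipid synthesis, had 32.8, 564.2, 7.52 and 0.859. No gene followed Cidec as closely as the nearest ones followed Plin1 or Fitm2. Nearest to Fitm2 were Gstz1 at 0.11, Ldhb at 0.13 and Tgfbr3l at 0.14, against a median of 1.86, and Gstz1, an enzyme of tyrosine breakdown, had 34.7, 81.8, 27.3 and 17.5 FPKM. The distance grows with the span of a gene, and with 4 points a small one is a description of these libraries.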

How the data were processed

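The authors deposited FPKM values for 13110 rows of RefSeq transcripts in each of 4 samples, 1 library per line. Total RNA was taken with Trizol on differentiation day 8, and a company prepared the mRNA libraries and sequenced them. The submitters' processing notes name mm10. The aligner, the FPKM program and a possible filter of low values are not given in the sources used here. No read counts were used.

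Rows were joined to symbols through RefSeq of GRCm38.p6 and summed per symbol, which gave 13108 genes. No symbol was found for 112 rows, and 2 had several. Changes are log2(FPKM + 1) differences against the control of the same vector, which understate changes of low genes, and 2-fold was the cut-off. With 1 sample per group no test was possible. Depth was estimated in single-transcript rows of at least 3000 bases, whose FPKM times length fell on steps. Within a tolerance of 0.2 steps, 69.2% of low values in sh-Luc and 75.3 to 75.8% in the other lines lay at a whole multiple. The step was the one that fitted these same values best, and a part of evenly spread values would also lie within that tolerance. The fragments and their 95% Poisson and binomial intervals are therefore approximate. The 7 genes and all lists were chosen with earlier results of these data known. The genes named are these 7, Cacul1, Pparg, list genes past 2-fold in both comparisons, and the 3 nearest profiles of each of the 7 that spans 2 log2 units. Other names (Adipoq in ratios, Cd68, Gng3, Hdgfl2, Cideb, Dlk1, Thy1, Col1a1, Col3a1, Tmem159, Lclat1, Hilpda, Dgat2) were added after values were seen. The 10 alternatives were a pseudocount of 0.1 or none, 2 filters on low values, quantile normalization, median-of-ratios scaling, TPM, the highest row per symbol, a 3-fold cut-off and the opposite control. Python 3.11.15, numpy 2.4.6, pandas 2.3.3, scipy 1.17.1 and matplotlib 3.10.9 were used, and the scripts were tested on simulated data.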

Additional observations from a re-analysis of the deposited data

How the results depend on the processing

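Without replicates no value can be set against the spread between cultures, and several values depended on which control was used. Read against the opposite control, the Plin1 change in sh-CACUL1 was -0.48 and the median of the 7 genes -0.44, both reversed, the Plin4 changes were -0.21 and -0.44, and the median in FLAG-CACUL1 was -0.41. Called genes then numbered 3 in sh-CACUL1 in place of 5, beside 22.9% of all genes in place of 21.3%. Cidec and Fitm2 were higher and Plin2 was lower, at -1.47. Only 1 gene in place of 3 was 2-fold lower in FLAG-CACUL1 and 2-fold higher in sh-CACUL1. The cause was not tested. A 3-fold cut-off left 2 genes in FLAG-CACUL1 in place of 4, beside 5.07% of all genes, and 2 in sh-CACUL1, beside 7.15%. Median-of-ratios scaling gave medians of -1.30 in FLAG-CACUL1, 1.54 in sh-CACUL1 and 1.17 for the controls. It called 4 genes between the controls in place of 2, beside 19.1% of all genes in place of 21.0%. Scaling to TPM gave 1.54 in sh-CACUL1 and 0.79 for the controls, quantile normalization 1.58 in sh-CACUL1, and a pseudocount of 0.1 or none 1.46 and 1.46. Filters on low values and the choice of row left every value of the 7 genes as it was. Values of single genes were set against the distance from the middle of their counting interval to its end. Of 182 such values under the alternatives, 126 moved by less than that distance, 55 by more, and 1 called value reversed. The 126 include every value under the 2 filters and the choice of row. Those could not move, since each gene had 1 row and at least 1 FPKM in all 4 samples, so the 126 overstate how stable the values were. Over all genes, 3-fold called 665, 937 and 997 in the order FLAG-CACUL1, sh-CACUL1 and controls, no pseudocount 3791, 4816 and 4728, and a pseudocount of 0.1 called 3172 in FLAG-CACUL1, against 1931, 2794 and 2753. The median of all genes in sh-CACUL1 was -0.30 as deposited, -0.01 after quantile normalization and 0.01 after median-of-ratios scaling. No paired analysis was possible because each line had 1 sample. Depth limits Bscl2 and, in FLAG-CACUL1, Cidec, which rest on 30 and 33 estimated fragments at their lowest.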
